A study of Mus musculus with 4 samples.

Results

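Smooth muscle and pericyte genes were followed in dermal white adipose tissue (dWAT), the fat layer under the dermis that surrounds the lower ends of the hair follicles. The set was chosen by name as genes of vessel-wall cells and of the arrector muscle of the hair. It holds 9 genes of the 22913 in the files: Acta2, Tagln, Myh11, Cnn1, Mylk and Actg2 of the contractile apparatus, and Rgs5, Cspg4 and Notch3 of pericytes. RNA sequencing gave 1 library for each of 4 groups of C57BL/6 mice with no genetic alteration named in the labels. OTD is dWAT of old mice (18 months) in telogen, the resting phase of the hair cycle, and YTD is that of young mice (2 months) in telogen. OAD and YAD are dWAT of old and young mice in anagen, the growth phase, which was induced by depilation. The age field of the labels gives 18 months for YTD and 2 months for OAD, against the title and description of the same samples, and the titles were followed. The tissue was scraped from the bottom of the follicles by microdissection after the subcutaneous fat and the panniculus carnosus, the thin skeletal muscle of the skin, had been taken off, and the study's methods give several mice per group. With 1 library per group there is no spread between replicates, so every comparison is between single libraries and has no error and no p-value.

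Smooth muscle cells and pericytes, together called mural cells, wrap the endothelium of vessels. Smooth muscle contracts when myosin light chain kinase phosphorylates the light chains of smooth muscle myosin, which then pulls on actin filaments. Skin also holds smooth muscle in the arrector pili, which raises the hair, and in the dermal sheath around the follicle, so these genes are not made by vessels alone. Pericytes sit on capillaries, depend on PDGF-B from the endothelium for their recruitment, and are recognised by a looser set of genes, of which Rgs5, Cspg4 and Notch3 are among the most used.

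Contractile genes are switched on by serum response factor with its partners of the myocardin family, which bind a short sequence called the CArG box (CC, then 6 letters that are each A or T, then GG). The 250 bases before the RefSeq start of the gene (GRCm38.p6) were at hand for 6 of the 9 genes, Acta2, Cnn1, Mylk, Rgs5, Cspg4 and Notch3, and none of these 6 windows holds a full CArG box. Since the box is a palindrome in this form, the search covers both strands. With 1 letter of the core allowed to be C or G, Acta2 has 2 matches and the other 5 windows have none. The windows of Acta2 and Rgs5 are shown because Acta2 alone holds matches and Rgs5 is the pericyte gene that differed most between the phases. Lower case is the sequence 5′ to 3′ on the strand of the gene, and capitals mark the 2 matches.
Acta2, chr19:34255374-34255623, minus strand: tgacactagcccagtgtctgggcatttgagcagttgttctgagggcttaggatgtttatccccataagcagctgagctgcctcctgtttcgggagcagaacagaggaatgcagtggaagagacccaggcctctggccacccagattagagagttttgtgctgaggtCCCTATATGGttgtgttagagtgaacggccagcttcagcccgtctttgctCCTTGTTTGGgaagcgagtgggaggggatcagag
Rgs5, chr1:169655251-169655500, plus strand: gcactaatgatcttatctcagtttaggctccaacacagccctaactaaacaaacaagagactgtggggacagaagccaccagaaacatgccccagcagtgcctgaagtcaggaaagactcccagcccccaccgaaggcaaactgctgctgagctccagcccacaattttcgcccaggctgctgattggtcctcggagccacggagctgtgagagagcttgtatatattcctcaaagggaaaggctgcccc
The matches of Acta2 are CCCTATATGG, at positions -84 to -75 from the start, and CCTTGTTTGG, at -34 to -25, and each has 5 of its 6 core letters as A or T. Among 32851 windows of the same length, 1.47% hold a full box, 8.59% hold a box or one with 1 core letter off, and 0.670% hold 2 or more of these. Of 20 other contractile genes with a window, 2 hold a full box and 5 a box or one with 1 core letter off. A match of letters is a description and not a bound site.

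FPKM, a count of fragments divided by gene length and library total, was used as deposited. Between telogen and anagen the libraries differed widely in make-up. Transcripts encoded in the mitochondria made up 44.7% (YTD) and 52.7% (OTD) of all FPKM in telogen and 14.4% (YAD) and 18.3% (OAD) in anagen, and 19 skeletal muscle markers held between 1.97% (YAD) and 9.88% (YTD). The lowest values placed the depths within a factor of 1.34 of each other, but the number of fragments in a library is unknown. A change is the difference of log2(FPKM + 1), which understates changes of low values, and a gene was called higher or lower at a change of at least 1 in size. Folds are ratios of FPKM. In whole tissue, fewer cells of a type and less RNA per cell cannot be told apart.

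All 9 genes were above 1 FPKM in each of the 4 libraries. Tagln was the highest in each library, with Acta2 next to it. Rgs5 followed in the telogen libraries and Notch3 in the anagen libraries. Cnn1 and Actg2 were the lowest in YTD, YAD and OAD, and Cspg4 was the lowest in OTD. The sum over the 9 genes was 337 FPKM in YTD, 615 in OTD, 187 in YAD and 179 in OAD. The libraries also differed in total FPKM, which was lowest in YAD (693715) and highest in OTD (1.25e+06). As a share of all FPKM the sum was 0.0271% in YTD, 0.0492% in OTD, 0.0270% in YAD and 0.0219% in OAD. The old telogen library thus held the most of these transcripts on both measures. The young libraries differed in FPKM but were level as a share.

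**Figure D1:**
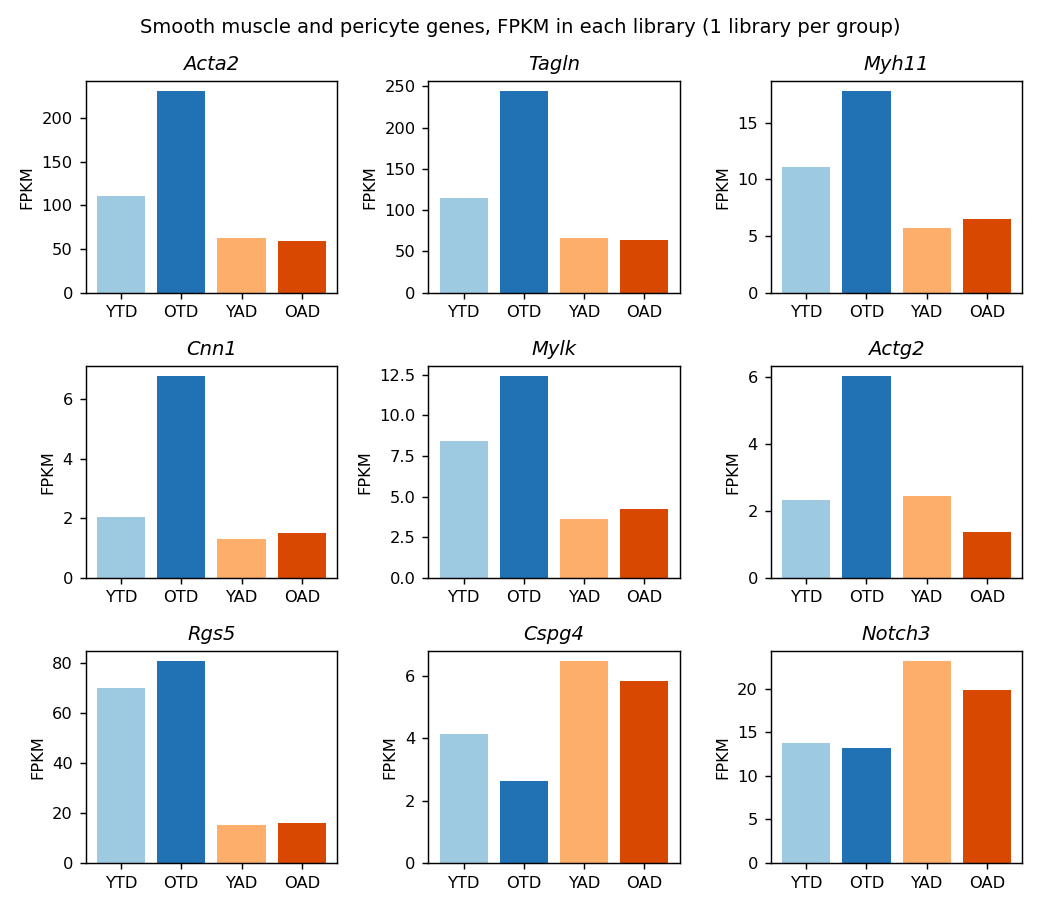
FPKM of the 9 genes (vertical axes, each from 0) in the libraries YTD, OTD, YAD and OAD, 1 bar per library and no error bars because each group has 1 library. The 6 contractile genes (the top 6 panels) are highest in OTD, Rgs5 is high in both telogen libraries, and Cspg4 and Notch3 are highest in YAD.

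In telogen the 6 contractile genes were higher in old than in young dWAT, while the 3 pericyte genes of the set had a median change of -0.05. Acta2, Tagln, Cnn1 and Actg2 rose by 2.09-fold to 3.32-fold in OTD against YTD, Myh11 and Mylk stood 1.61-fold and 1.48-fold above YTD without reaching the threshold, and Rgs5, Cspg4 and Notch3 lay between a log2 change of -0.50 and 0.20. Of the 9 genes 4 were called higher and 0 lower, where 1.67% of the 17230 genes with a value above 0 were called higher and 1.93% lower. The median change was 0.64 over the 9 genes, 1.07 over the 6 contractile genes and -0.05 over the 3 pericyte genes, and it was -0.03 over all genes.

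Acta2 (ENSMUSG00000035783, GRCm38 chr19:34241090-34255336, minus strand) encodes smooth muscle alpha actin, the thin filament protein of smooth muscle and of activated fibroblasts. Its FPKM was 110.5 in YTD, 231.2 in OTD, 62.8 in YAD and 59.3 in OAD. The old telogen library stood above the other 3, and the anagen libraries lay close together at the low end. Its log2 change was 1.06 in telogen and -0.08 in anagen.

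Tagln (ENSMUSG00000032085, chr9:45929628-45936058, minus strand) encodes transgelin, also called SM22 alpha, an actin-binding protein of smooth muscle. It was at 114.8 FPKM in YTD, 244.4 in OTD, 66.4 in YAD and 63.9 in OAD, the order seen for Acta2. The ratio of Acta2 to Tagln stayed between 0.928 and 0.963 across the 4 libraries, so the levels of this pair kept to each other. On the opposite strand, the annotation places Pcsk7 over part of Tagln, and whether the counting used strand is not given in the sources used here. Pcsk7 was at 8.06 FPKM in YTD, 9.31 in OTD, 11.2 in YAD and 11.4 in OAD, far below Tagln and in another order.

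Cnn1 (ENSMUSG00000001349, chr9:22099281-22109630, plus strand) encodes calponin, a regulator of actomyosin in differentiated smooth muscle. It had 2.04 FPKM in YTD, 6.78 in OTD, 1.31 in YAD and 1.497 in OAD. Its log2 change in telogen, 1.35, was the largest of the 9 genes and a 3.32-fold difference in FPKM. Only OTD stood apart among the libraries.

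Actg2 (ENSMUSG00000059430, chr6:83512905-83536265, minus strand) encodes the gamma actin of enteric smooth muscle. It had 2.32 FPKM in YTD, 6.03 in OTD, 2.44 in YAD and 1.36 in OAD. It rose 2.59-fold in OTD against YTD (log2 change 1.08). On FPKM as deposited, Actg2 was the one contractile gene whose young anagen level did not lie below its young telogen level. After the rescaling to a common library sum given below, the same held for Acta2, Tagln and Cnn1.

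Myh11 (ENSMUSG00000018830, chr16:14194527-14291408, minus strand), the smooth muscle myosin heavy chain and the most specific gene of the set for mature smooth muscle, was at 11.1 FPKM in YTD, 17.8 in OTD, 5.73 in YAD and 6.48 in OAD. Mylk (ENSMUSG00000022836, chr16:34784921-35002420, plus strand), the myosin light chain kinase that starts contraction, was at 8.40, 12.4, 3.59 and 4.23 FPKM in the same order. Both followed Acta2 in the order of telogen levels, with a log2 change of 0.64 for Myh11 and 0.51 for Mylk, short of the threshold. GENCODE places 3 antisense genes over Mylk, and reads of such pairs cannot be told apart where strand is not used in counting. Notch3 has 1 antisense gene and the other members besides Tagln and Mylk have none.

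Rgs5 (ENSMUSG00000026678, chr1:169655501-169695813, plus strand) dampens signalling through G proteins and is a marker of pericytes. Its FPKM was 70.1 in YTD, 80.7 in OTD, 15.3 in YAD and 16.1 in OAD. The telogen libraries stood far above the anagen libraries, and the ages lay near each other in both phases (log2 change of 0.20 in telogen and 0.08 in anagen). Cspg4 (ENSMUSG00000032911, chr9:56865104-56899870, plus strand), the proteoglycan NG2 of the pericyte surface, had 4.15 FPKM in YTD, 2.63 in OTD, 6.47 in YAD and 5.84 in OAD. It was lowest where the contractile genes were highest, with a log2 change of -0.50 in telogen. Notch3 (ENSMUSG00000038146, chr17:32120820-32166880, minus strand), the Notch receptor of mural cells, had 13.8 FPKM in YTD, 13.2 in OTD, 23.2 in YAD and 19.8 in OAD, with a log2 change of -0.05 between the ages in telogen.

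Other cell types moved beside the contractile genes in telogen, and their part in these changes was not tested. The 13 endothelial markers all stood above YTD in OTD, Emcn alone past the threshold, with a median of 0.56, and their summed level went from 586 to 870 FPKM. All 19 skeletal muscle markers were lower, 5 past the threshold, with a median of -0.70. Of 10 fibroblast markers 8 were higher (median 0.55, with Dcn and Lum past the threshold), and of 8 macrophage markers 7 were higher (median 0.44, with Cd68 past the threshold). The 11 hair shaft and inner root sheath markers were all lower in OTD, 6 of them past the threshold, with a median of -1.13 and a sum of 372 FPKM in YTD and 198 in OTD. Of 8 keratinocyte markers 6 were lower (median -0.36, with Krt15 past the threshold), and of 10 adipocyte markers 7 were higher (median 0.29, none past it). Medians of the 10 dermal papilla and dermal sheath markers and of the 7 melanocyte markers were -0.07 and -0.23, with none past the threshold. None of the 13 endothelial, 10 fibroblast and 8 macrophage markers was at 0 in any library. Set against the endothelium, the mean log2 level (FPKM without a pseudocount) of the contractile genes minus that of the endothelial markers was -1.28 in YTD and -0.81 in OTD. On this mean the contractile genes stood higher against the endothelial markers in OTD. The same measure for the pericyte genes was -1.03 in YTD and -1.81 in OTD. Beside the endothelial median change of 0.56, Myh11 changed by 0.64 and Mylk by 0.51, so not every contractile gene stood clearly above it. Acta2 stood at 1.60 times Pecam1, a junction protein of endothelium, in YTD and at 1.94 times in OTD, and Rgs5 at 1.01 and 0.678 times.

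**Figure D2:**
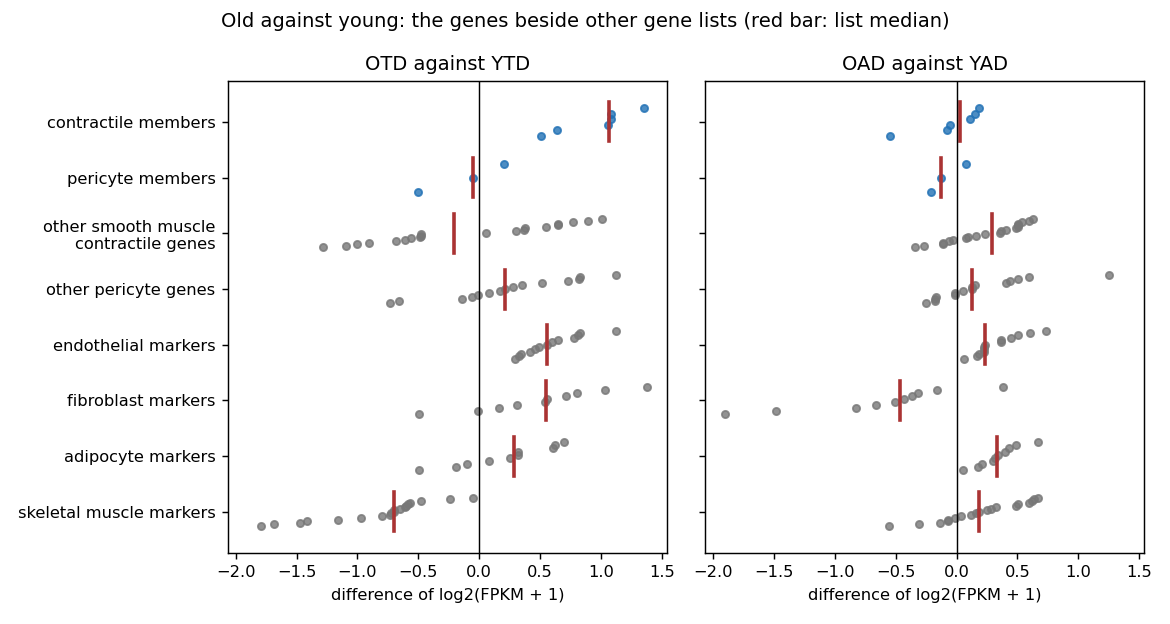
Difference of log2(FPKM + 1) between old and young dWAT in telogen (left) and anagen (right), 1 point per gene, for the 6 contractile and 3 pericyte genes (blue) and for other gene lists (grey), with the median of each list as a red bar. In telogen the contractile genes have a median of 1.07 and the skeletal muscle markers one of -0.70, and in anagen the contractile genes have a median of 0.03.

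The other genes of contraction did not move as a block in telogen. Of 20 other smooth muscle contractile genes 10 were higher and 10 lower in OTD, with 1 gene higher and 3 lower past the threshold and a median of -0.21. Myl9, the regulatory light chain that Mylk phosphorylates, went with Acta2: 92.2 FPKM in YTD, 186.9 in OTD, 44.6 in YAD and 47.7 in OAD, a log2 change of 1.01. Hspb6, a small heat shock protein of muscle, fell from 1463 to 685 FPKM (-1.09), Ppp1r12b, a subunit of myosin phosphatase, from 49.3 to 19.6 FPKM (-1.29), and Npnt, a matrix ligand of integrin alpha 8, from 28.3 to 13.6 FPKM (-1.01). Hspb6 and several others of this list, Des, Tpm1 and Tpm2 among them, are also made by skeletal muscle, whose markers were lower in OTD.

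Of 25 receptors and signals that set smooth muscle tone 20 were higher in OTD and 5 lower, with a median of 0.27 and 1 gene past the threshold. That gene was Pln, phospholamban, which restrains the calcium pump of the sarcoplasmic reticulum, at 3.58 FPKM in YTD, 11.4 in OTD, 0.768 in YAD and 0.781 in OAD. The subunits of the nitric oxide receptor, Gucy1a1 (6.58 and 12.1 FPKM in YTD and OTD, change 0.79) and Gucy1b1 (4.71 and 8.54 FPKM, change 0.74), did not pass it, nor did the serotonin receptor Htr2a (0.275 and 1.20 FPKM, change 0.79). Among 8 regulators of the smooth muscle program, Klf4, a factor known to hold contractile genes down and expressed in many skin cells, was the only one called, at 21.4 FPKM in YTD and 60.8 in OTD (1.47). Srf, serum response factor itself, was at 29.5 FPKM in YTD and 23.9 in OTD (-0.29), and Mrtfa, a coactivator of Srf, at 6.16 and 3.41 FPKM (-0.70). Myocd, the defining coactivator of smooth muscle, was under 1 FPKM in each library (0.130 to 0.415 FPKM). Myocd was named after its values were seen.

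The remaining pericyte genes were spread around the level of no change. Of 15, 10 were higher and 5 lower in OTD, with a median of 0.21 and 1 past the threshold: Higd1b, a mitochondrial protein used as a pericyte marker, at 2.25 FPKM in YTD and 6.09 in OTD (1.12). Vtn (6.57 and 12.4 FPKM, change 0.83) and Anpep (7.48 and 13.9 FPKM, change 0.82) stood above, and Abcc9, a subunit of the potassium channel of mural cells, stood below (32.3 and 19.0 FPKM, change -0.74). Among 7 genes of signalling between endothelium and mural cells 6 were higher and none passed the threshold. Of these 7, Tek is also counted among the endothelial markers. The furthest was Edn1, which encodes the constrictor endothelin 1, at 6.56 FPKM in YTD and 12.7 in OTD (0.86).

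Near relatives of the actins matter here because Acta1, the skeletal muscle actin, was at 27442 FPKM in YTD, 17991 in OTD, 2919 in YAD and 4106 in OAD. Acta2 was 0.403% of Acta1 in YTD and 1.29% in OTD, and the pair differed in opposite directions, Acta1 with a log2 change of -0.61 and Acta2 with one of 1.06. The coding sequences of Acta2 and Acta1 are 85.4% identical, share no stretch of 50 bases, and have a longest shared run of 29 bases. Within 2 mismatches, 0.737% of the 50-base windows of Acta2 were found in Acta1, 1.20% in Actb and 2.58% in Actg1. For Actg2, 2.87% of the windows were found in Acta1 and 4.71% in Actc1, with a longest run of 38 bases shared with Actc1. Actc1, the cardiac actin, was at 149.0 FPKM in YTD, 36.8 in OTD, 11.7 in YAD and 3.15 in OAD, a fall of 1.99 on the log2 scale in telogen, opposite to Actg2. Against Actg1, a cytoplasmic actin at 297 FPKM in YTD and 521 in OTD, Acta2 shares 7 of 1085 windows of 50 bases, so a small part of its value could be shared with that gene. Without the actins, 2 of the 7 remaining genes, Tagln and Cnn1, were called higher in OTD.

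In anagen the contractile and pericyte genes lay close together in old and young dWAT. Of the 9 genes 0 were called higher and 0 lower in OAD against YAD, where 0.727% of 17613 genes were called higher and 0.454% lower, and their median change was -0.05 against 0 over all genes. The changes ran from -0.54 for Actg2, which was at 2.44 FPKM in YAD and 1.36 in OAD, to 0.19 for Mylk. Actg2 was the gene farthest from no change, and it is among the lowest in level. Rescaling to TPM shifted the median of all genes with at least 1 FPKM to -0.21 and that of the 9 genes to -0.28.

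Endothelial markers were higher in OAD than YAD in 13 of 13 (median 0.23) with none past the threshold, and skeletal muscle markers in 13 of 19 (median 0.18). Fibroblast markers were lower in 9 of 10, with Col1a1 (-1.90) and Col3a1 (-1.48) past the threshold, and dermal papilla and dermal sheath markers in 9 of 10, with Vcan (-1.51). The mean log2 level of the contractile genes minus that of the endothelial markers was -0.35 in YAD and -0.78 in OAD, lower in the old library. Among the 15 other pericyte genes, Cox4i2, a subunit of cytochrome oxidase with higher expression at low oxygen, was the only one called, at 5.35 FPKM in YTD, 3.03 in OTD, 6.48 in YAD and 16.8 in OAD. Its log2 change was 1.25 between the ages in anagen and -0.66 in telogen.

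The age change in telogen minus that in anagen was 1.14 for Acta2, 1.14 for Tagln, 1.24 for Cnn1, 1.62 for Actg2, 0.49 for Myh11 and 0.32 for Mylk. It was 0.12 for Rgs5, 0.16 for Notch3 and -0.38 for Cspg4. These differences between phases were not tested.

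**Figure D3:**
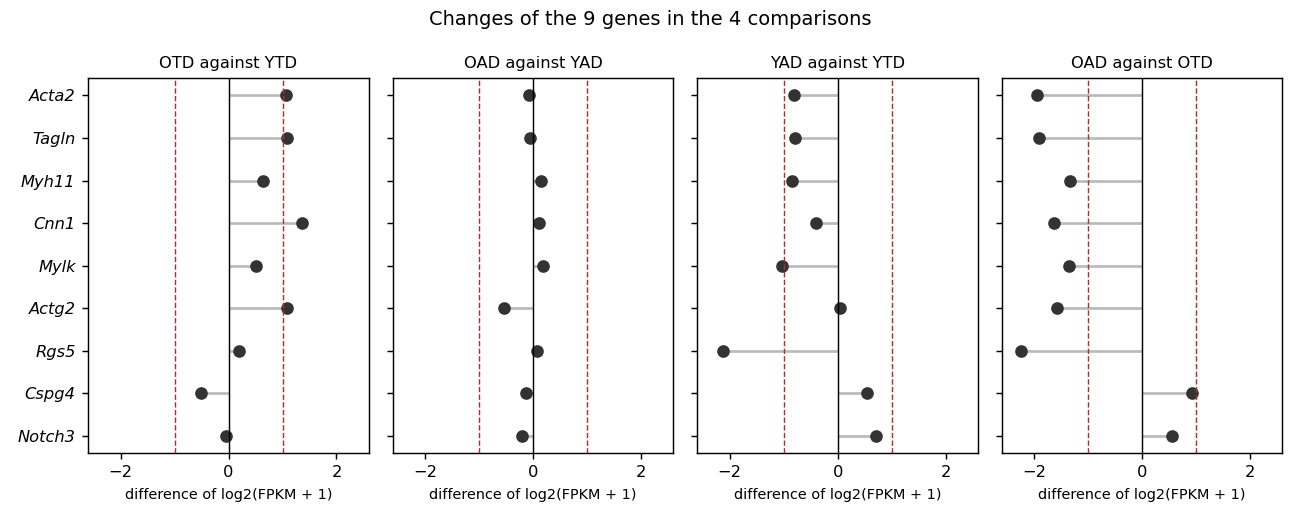
Difference of log2(FPKM + 1) for the 9 genes in 4 comparisons of single libraries, with dashed lines at the threshold of 1 in size. Acta2, Tagln, Cnn1 and Actg2 lie past it in OTD against YTD, no gene does in OAD against YAD, Mylk and Rgs5 do in YAD against YTD, and 7 genes do in OAD against OTD.

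On FPKM, Rgs5 and 5 of the 6 contractile genes stood lower in anagen than in telogen in the young, Actg2 being level (0.05), and all 6 did in the old, while Cspg4 and Notch3 stood higher at both ages. In the young, the direction of Acta2, Tagln and Cnn1 turned when the libraries were rescaled to TPM. In the young, 2 of the 9 genes were called lower, Rgs5 (-2.13, a fall of 4.59-fold) and Mylk (-1.03, 2.34-fold), and 0 higher, where 16.7% of 17622 genes were called lower and 16.1% higher. In the old, 7 of the 9 genes were called lower and 0 higher in OAD against OTD, where 15.6% of 17712 genes were called lower and 16.1% higher. The median change of the 9 genes was -0.78 in the young and -1.57 in the old, against 0.02 and 0.01 over all genes. The old comparison shares OTD with the age comparison in telogen, in which 4 of these genes were called higher, and the young one shares YTD.

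In the old, the log2 change was -2.25 for Rgs5 (4.997-fold lower), -1.94 for Acta2 (3.90-fold), -1.92 for Tagln (3.82-fold), -1.64 for Cnn1 (4.53-fold), -1.57 for Actg2 (4.43-fold), -1.36 for Mylk (2.93-fold) and -1.33 for Myh11 (2.75-fold). In the young, Acta2 changed by -0.81, Tagln by -0.78, Myh11 by -0.84, Cnn1 by -0.39 and Actg2 by 0.05. Cspg4 stood 1.56-fold higher in anagen in the young and 2.22-fold in the old (changes of 0.54 and 0.92), and Notch3 1.68-fold and 1.499-fold (0.71 and 0.55).

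Rescaling to a sum of 1000000 in each library (TPM) moved the median of all genes with at least 1 FPKM to 0.76 in the young and 0.58 in the old. In TPM the changes of Acta2 (0.03), Tagln (0.06) and Cnn1 (0.13) in the young were on the other side of 0, while the median of the 9 genes lay 0.70 below that of all genes, and 0.81 below it on FPKM. TPM gave Rgs5 a change of -1.32, Mylk one of -0.33, Cspg4 one of 1.26 and Notch3 one of 1.51 in the young, so Mylk was then not called and Cspg4 and Notch3 were called higher. In the old, TPM gave -0.82 for Mylk and -0.77 for Myh11, short of the threshold, and 1.40 for Cspg4 and 1.13 for Notch3, past it. Among genes with at least 1 FPKM, 20.6% were called higher and 21.4% lower in the young on FPKM, and 42.1% and 9.27% in TPM. In the old the split was 20.6% and 19.9% on FPKM and 35.3% and 10.8% in TPM, and the median of the 9 genes lay 1.62 below that of all genes on FPKM and 1.70 below it in TPM.

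On FPKM, endothelial markers and most pericyte genes were lower in anagen. All 13 endothelial markers were called lower in the young (median -1.57) and in the old (median -1.85). Over all genes, 16.7% were called lower in the young and 15.6% in the old. The sum of the 13 markers was 198 FPKM in YAD and 257 in OAD. As a share of all FPKM it was 0.0471% in YTD, 0.0696% in OTD, 0.0285% in YAD and 0.0316% in OAD. The counts of this paragraph were not repeated in TPM. Of the 15 other pericyte genes 8 were called lower in the young and 9 in the old, with medians of -1.08 and -1.46. Among them was Kcnj8, the pore of the mural potassium channel, at 9.36 FPKM in YTD, 10.7 in OTD, 1.47 in YAD and 2.27 in OAD. In the other direction, 1 was called higher in the young (Heyl, 1.96) and 2 in the old (Cox4i2, 2.14, and Heyl, 2.12). Pdgfb, the endothelial growth factor that recruits pericytes, was at 21.1, 23.6, 5.28 and 6.91 FPKM in the same order. Rgs5 was called lower at both ages too, and its ratio to Pecam1 was 1.01 in YTD, 0.678 in OTD, 0.834 in YAD and 0.676 in OAD. The ratio of Acta2 to Pecam1 was higher in anagen in both ages, at 1.60 in YTD and 3.43 in YAD, and at 1.94 in OTD and 2.48 in OAD. The mean log2 level of the contractile genes minus that of the endothelial markers was -1.28 in YTD and -0.35 in YAD. In the old this measure was nearly level, at -0.81 in OTD and -0.78 in OAD. For the 3 pericyte genes of the set it was -1.03 in YTD and 0.36 in YAD, and -1.81 in OTD and -0.11 in OAD. Hair shaft genes went from 372 and 198 FPKM in sum in YTD and OTD to 19882 and 22799 in YAD and OAD, and adipocyte markers were called lower in 9 of 10 in the young and in 8 of 10 in the old. The part of these other cells in the changes between phases was not tested.

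Notch3 and Cspg4 stood higher in anagen, unlike the endothelial markers and unlike 12 of the 15 other pericyte genes at each age. The ratio of Notch3 to Pecam1 was 0.199 in YTD, 0.111 in OTD, 1.27 in YAD and 0.830 in OAD. Its relatives and ligands differed among themselves. Notch1, a receptor of many epithelial and endothelial cells, was at 6.09 FPKM in YTD, 6.10 in OTD, 54.5 in YAD and 44.0 in OAD. Jag1, a Notch ligand, was at 6.52, 8.01, 47.95 and 35.03 FPKM in the same order, and Heyl, a Notch target gene of mural cells, at 2.37, 2.34, 12.1 and 13.6 FPKM. Notch3 exceeded Notch1 in telogen, at 2.26 times in YTD and 2.17 times in OTD, and was 0.425 and 0.451 times Notch1 in YAD and OAD. Dll4, a Notch ligand of endothelium, was lower in anagen, at 4.99 FPKM in YTD, 8.70 in OTD, 1.69 in YAD and 2.03 in OAD, and was called lower in the young (-1.15) and in the old (-1.68). Notch4, the receptor of endothelium, was at 4.71, 3.89, 2.01 and 2.31 FPKM in the same order and did not pass the threshold (-0.92 in the young and -0.56 in the old). Jag1 and Notch1 are also made by follicle epithelium, and 8 of 8 keratinocyte markers were higher in anagen in the young and in the old (medians of 2.45 and 2.93).

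**Figure D4:**
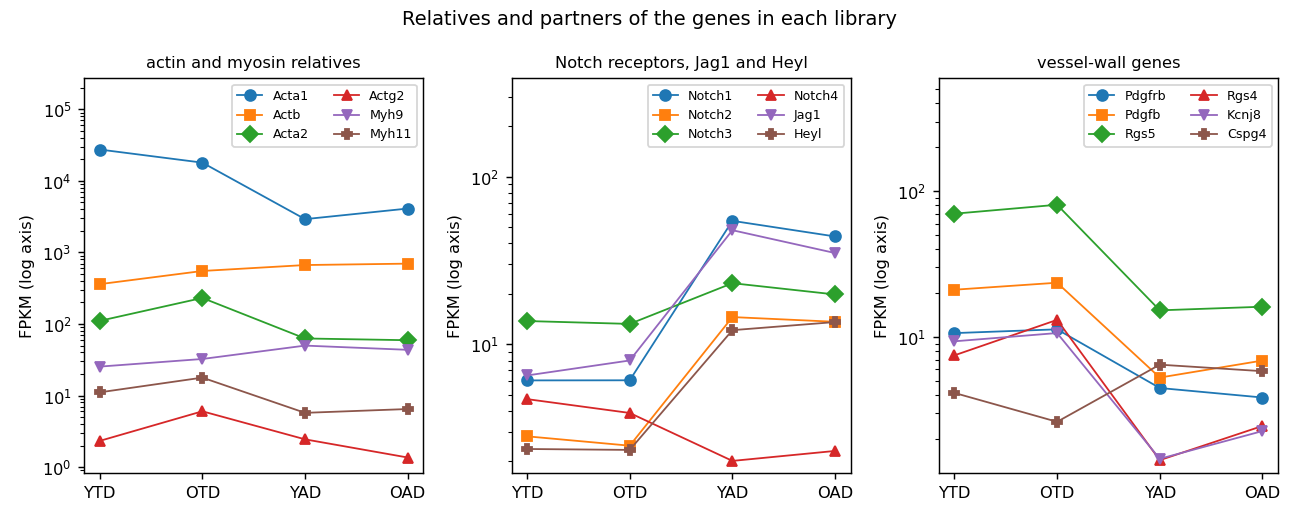
FPKM on a log axis in the libraries YTD, OTD, YAD and OAD for actin and myosin genes (left), Notch receptors with Jag1 and Heyl (middle) and vessel-wall genes (right), with lines that only join the points of 1 gene. Acta1 lies far above Acta2 in each library, Notch1, Notch2, Jag1 and Heyl are higher in both anagen libraries, and Rgs5, Rgs4, Kcnj8, Pdgfb and Pdgfrb are lower there.

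On FPKM, the listed relatives of the contractile genes outside muscle stood higher in anagen at both ages, apart from Cnn2 in the old. They were Actb, Actg1, Tagln2, Tagln3, Myh9, Myh10, Myh14, Cnn2 and Cnn3. Myh9, the nonmuscle myosin heavy chain, was at 25.4 FPKM in YTD, 32.4 in OTD, 49.9 in YAD and 43.5 in OAD, so that Myh11 was 0.437 and 0.549 times Myh9 in YTD and OTD and 0.115 and 0.149 times in YAD and OAD. Actb, the cytoplasmic beta actin, was at 360 FPKM in YTD, 551 in OTD, 666 in YAD and 697 in OAD, and the ratio of Acta2 to Actb was 0.307, 0.420, 0.0942 and 0.0851 in that order. Cnn2, a relative of Cnn1 outside muscle, was at 13.6 FPKM in YTD, 24.7 in OTD, 18.5 in YAD and 14.6 in OAD, above telogen in the young (0.42) and below it in the old (-0.72). Tagln3, a relative of Tagln known from neurons, was at 1.69 FPKM in YTD, 0.687 in OTD, 64.5 in YAD and 55.9 in OAD. Rgs4, a relative of Rgs5 in pericytes and smooth muscle, was at 7.50, 13.1, 1.43 and 2.46 FPKM, and fell with Rgs5 in anagen. Rgs16, of the same family, was at 2.35 FPKM in YTD, 8.17 in OTD, 3.19 in YAD and 2.16 in OAD, with its one high value in OTD.

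In the old, 13 of 20 other contractile genes and 9 of 25 receptors and signals were called lower in anagen, with medians of -1.61 and -0.90, and in the young 12 and 7, with medians of -1.79 and -0.42. Over all genes, 15.6% were called lower in the old and 16.7% in the young. Skeletal muscle also makes several of these contractile genes, and 15 of its 19 markers were called lower in the old and 18 in the young. These counts are on FPKM and were not repeated in TPM. Actn1, alpha actinin, was the one other contractile gene called higher in the young (10.9 FPKM in YTD and 2.29 times that in YAD), and Ednrb, the endothelin B receptor, which melanocytes also carry, the one receptor (4.98 and 15.3 FPKM). Pln fell by 2.80 on the log2 scale in the old. Among the regulators, Klf4 was higher in YAD than YTD (57.8 against 21.4 FPKM, change 1.40), and in OAD against OTD Mrtfa was higher (8.14 against 3.41 FPKM, 1.05) and Gata6 lower (0.446 against 2.10 FPKM, -1.10).

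Likeness to Myh11 and to Rgs5 was measured as the root mean square distance between the 4 values of log2(FPKM + 1), each less its mean, over 10660 genes with at least 5 FPKM in a library. The 5 genes nearest to Myh11 were Rap1b (0.0179), Il13ra1 (0.0274), Filip1l (0.0302), Kctd12 (0.0343) and Timp3 (0.0447). Those nearest to Rgs5 were Gpr146 (0.0555), Dram2 (0.0706), Cd34 (0.0727), Tspan12 (0.0759) and Aldh6a1 (0.0767). No other gene of the 9 was among them, and with 4 libraries such nearness is a description of these libraries alone.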

How the data were processed

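RNA of dWAT from 4 groups was sequenced, 1 library each. The authors deposited FPKM per gene for 22913 genes with positions on GRCm38 and a length (97.0% are multiples of 3, so coding length). This listed length is not the one that FPKM were divided by, so fragments per library could not be recovered. Per the labels, TopHat2 and bcl2fastq were named with GRCm38, without versions. The counting tool, annotation, strand use and scaling are not given in the sources used here. Symbols were matched for 21750 genes.

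The 9 genes and all lists were chosen with earlier results of these data known. FPKM were used as deposited with a pseudocount of 1, and a change of at least 1 on the log2 scale was counted. Genes above 0 in a compared library formed the background. Besides the 9 genes, the text names up to 4 genes of each list per comparison by size of change (FPKM of at least 1), relatives of the 9, the 5 nearest in likeness for Myh11 and Rgs5, and a few other list members given beside them. No test, floor or interval was made, since each group is 1 library and depth in fragments is unknown. Depths relative to YTD, read from the ratios of the lowest values, were 1.05 in OTD, 1.34 in YAD and 1.16 in OAD. Overlapping genes and coding sequences came from GENCODE M21, and 250-base windows from RefSeq (GRCm38.p6).

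Alternatives were pseudocounts of 0.1 and 0.01, a filter at 1 FPKM, TPM, median of ratios over 15507 genes, leaving out 13 mitochondrial genes alone or with 19 skeletal muscle and 110 keratin genes, a threshold of 1.5-fold and, chosen after seeing the data, leaving out Acta2 and Actg2. The steps were tested on simulated data. Python 3.11.15, numpy 2.4.6, pandas 2.3.3, scipy 1.17.1 and matplotlib 3.10.9 were used.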

Additional observations from a re-analysis of the deposited data

Results flagged for a closer look

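The age change differed between the phases for 3 contractile genes whose old and young libraries stood in opposite orders in telogen and anagen. For Acta2 the log2 change of old against young was 1.06 in telogen and -0.08 in anagen, a difference of 1.14. For Tagln it was 1.08 and -0.05, a difference of 1.14, and for Actg2 1.08 and -0.54, a difference of 1.62. The anagen changes of Acta2 and Tagln are smaller in size than the 0.25 used below as a tolerance, so their order in anagen is not settled. Cnn1 differed by 1.24 between the phases, with changes of 1.35 in telogen and 0.11 in anagen, both above 0. Seen the other way, the change from telogen to anagen was 0.05 for Actg2 in the young and -1.57 in the old, a difference of -1.62. These are differences between single libraries and were not tested.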

How the results depend on the processing

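Of 252 values of single genes under other settings, 218 stayed within 0.25 of the reported log2 change, 34 moved further, and 0 changed sign among those called. TPM accounted for 18 of the 34. In OTD against YTD the number of genes called higher stayed at 4 under each scaling and pseudocount. It was 5 at 1.5-fold, where 8.43% of genes with at least 1 FPKM were called higher, and 2 without the actins. In OAD against YAD it was 0 under all settings. In YAD against YTD the count of called genes was 1 without mitochondrial genes, 1 without mitochondrial, skeletal muscle and keratin genes and 6 at 1.5-fold, against 2 as reported, and the median in TPM was 0.0551, against -0.78. In OAD against OTD the median was -1.57 as reported, -1.93 with a pseudocount of 0.1 and -1.93 with 0.01, -1.12 in TPM, -1.88 without mitochondrial genes and -1.83 without mitochondrial, skeletal muscle and keratin genes. The count there was 7 lower and 0 higher as reported. With a pseudocount of 0.1 or 0.01 it was 7 lower and 1 higher, Cspg4 (1.12 and 1.15). In TPM it was 5 lower and 2 higher. The cause of these shifts was not tested, apart from TPM, which moved the median of all genes by design. Leaving out a replicate was not possible, and a test on read counts or CPM was not run because FPKM were used. No paired analysis was possible because each group has 1 library. Depth limits Cnn1 and Actg2 most, whose levels were the lowest in 3 of the 4 libraries.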
